A study of Homo sapiens with 16 samples.

Results

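The levels that genes reached after a pulse of an MPS1 inhibitor were compared between NCI-H1944 cells lacking both STING and MAVS, per their label, and control cells. NCI-H1944 is an established human lung adenocarcinoma line. The comparison rests on 4 of the series' 16 RNA sequencing libraries, chosen by their labels: 2 libraries of the line labelled STING/MAVS knockout (DKO) after MPS1i and 2 of the line labelled wild type (SCR) after MPS1i. Per the labels' protocols, MPS1i was BAY-1217389 at 100 nM for 48 h, followed by 24 h without drug, and DMSO was the vehicle. The other groups, used only for reference, were DKO and SCR cells after DMSO, and cells labelled STING knockout or MAVS knockout after MPS1i, with 2 libraries each. The labels do not say whether the knockout lines are single clones or pools, how they were checked, or whether replicates come from separate cultures. The p-values therefore cover only library-to-library spread, which may be technical. STING and MAVS differences cannot be told apart from other differences between the lines. Per the series' text, the study asked how far the response to pulsed treatment depends on STING, on MAVS or on both.

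MPS1, the product of TTK, is a kinase of the spindle assembly checkpoint, which holds cells in mitosis until chromosomes are attached. Cells that divide without it missegregate chromosomes and can form micronuclei. DNA in the cytosol is detected by cGAS, which signals through STING, and double-stranded RNA is detected by RIG-I and MDA5, which signal through MAVS. Both adaptors activate TBK1, IRF3 and NF-kB, which switch on interferons, and secreted interferons act through JAK-STAT signalling to raise a large set of interferon-stimulated genes.

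The DKO libraries held 33601232 and 20635229 counts, and the SCR libraries 36769058 and 45854868, and 17950 genes had enough counts to be tested. Levels are given as CPM, counts scaled to a common library total with TMM factors. Differences are log2 fold changes of DKO over SCR with standard errors, tested with edgeR's quasi-likelihood test, and a gene was called at a Benjamini-Hochberg adjusted p under 0.05. Replicates of a group correlated at 0.986 to 0.993 (log2 CPM, across genes). On the first principal component, which held 39.7% of the variance, the DKO libraries lay at -15.4 and -16.4 and the SCR libraries at 72.3 and 70.9. The STING1 transcript stood at 4.04 and 4.21 CPM in DKO and 29.1 and 28.9 CPM in SCR (-2.82 ± 0.10, adjusted p = 1.4e-17), and after DMSO at 4.9 and 4.83 CPM in DKO and 8.25 and 8.3 CPM in SCR (-0.77 ± 0.11, adjusted p = 4.0e-06). MAVS stood at 186 and 191 CPM in DKO and 121 and 119 CPM in SCR (0.66 ± 0.05, adjusted p = 6.8e-12), so its transcript was not lower in the line labelled as lacking it. Of the epithelial markers, KRT7, KRT8, KRT18 and CDH1 were present in all 4 libraries (KRT7 130.5 and 134 CPM in DKO and 115 and 103 CPM in SCR). EPCAM was low, at 76 and 46 counts in DKO and 111 and 123 in SCR. NKX2-1 and KRT19 had 4 counts or fewer in each of these libraries and NAPSA 8 or fewer. Of 32 lung epithelial markers, 12 had 10 counts or fewer in every one of the 4 libraries, and 7 had 0, among them SFTPA1, SFTPC and SCGB1A1. Of 18 immune cell markers, 11 had 10 counts or fewer in every one of the 4 libraries, and CD3D, MS4A1 and NKG7 were among those with 0.

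After the pulse, 8087 of 17950 tested genes differed between DKO and SCR (45.1%). DKO cells were higher for 4064 of them (22.6%) and lower for 4023 (22.4%). Differences of at least 2-fold were more often lower, with 1049 genes (5.84%), than higher, with 628 genes (3.5%). At 10-fold and beyond, 184 genes were lower and 13 higher. Both DKO libraries lay below both SCR libraries in all 4023 lower genes and above them in 4061 of the 4064 higher genes. The libraries of the 2 groups did not overlap for the called genes named below. As the calls rest on these same libraries, the lack of overlap largely follows from the call and is no further support. The share without overlap among all tested genes is not given here. The split of all calls moved with the scaling: 60.3% of calls were higher with upper quartile scaling (5023 higher, 3305 lower) and 62.8% with total counts (5300 higher, 3140 lower), against 50.3% with TMM. The median over all genes was 0 with TMM and shifted by at most 0.09 on the log2 scale under the other scalings. The median of the protein-coding genes on each chromosome (mean of at least 1 CPM, 12445 genes) lay between -0.05 on chromosome 7, next to -0.04 on chromosome 5, and 0.09 on chromosome 9, next to 0.08 on chromosome 22. No chromosome thus stood apart by as much as 0.1 on the log2 scale.

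**Figure D1:**
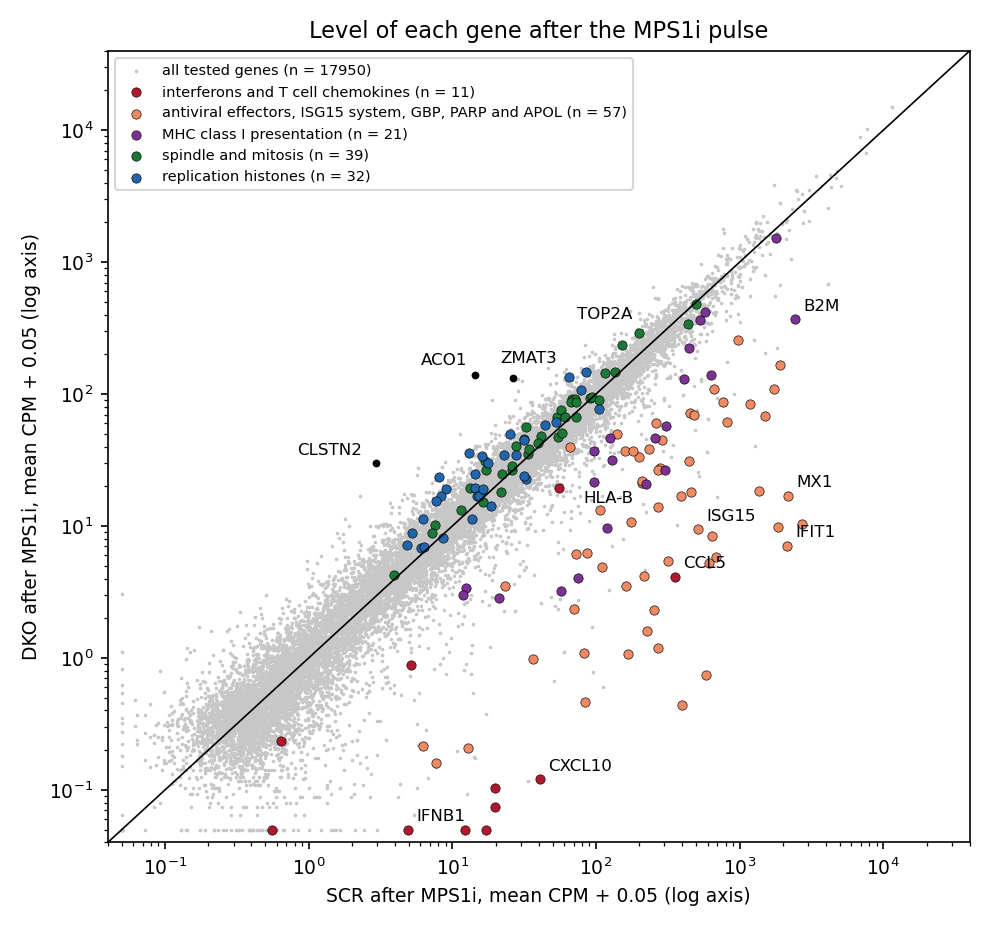
Mean level of each of 17950 tested genes after MPS1i in DKO (vertical axis) and SCR (horizontal axis), both as CPM + 0.05 on log axes; the line marks equal levels, each point is 1 gene, and colours mark gene lists. Interferon, chemokine and antiviral genes lie below the line (IFIT1 averaged 7.06 CPM in DKO and 2128 CPM in SCR), while spindle and histone genes lie along it or just above.

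The interferon genes, which encode the secreted signals, were near 0 in DKO. In RNA from a whole culture, here and below, fewer cells with a transcript and less of it per cell cannot be told apart. All 6 tested interferon genes of 9 listed were lower (22.4% of all genes were called lower). Near 0 in DKO and after DMSO, IFNB1, IFNL1 and IFNL2 passed the count filter through groups where they were high, such as SCR after MPS1i. The filter thus favours interferon genes that are lower in DKO, so the count of 6 is not independent support. IFNB1, the first type I interferon made by most cells, had 0 counts in both DKO libraries, against 165 and 222 counts in SCR. IFNL1, a type III interferon, had 0 counts in both DKO libraries, against 462 and 509 in SCR, and IFNL2 had 0 against 594 and 758. Taking 3 counts as the floor that a count of 0 allows per library, SCR was at least 42.3-fold higher for IFNB1, at least 107-fold for IFNL1 and at least 148-fold for IFNL2. IFNL3 had 0 and 1 counts in DKO, against 728 and 826 in SCR, a ratio of SCR over DKO of 1087 with a 95% counting interval of 195 to 42948. IFNL2 and IFNL3 are near-identical, so reads may be split between them. The fitted median of the 6 genes was -10.02 on the log2 scale and -6.07 with genes at 0 put at their bound, against 0 for all genes. DESeq2 called 5 of the 6 genes, and 4 were called with libraries thinned to equal depth. After DMSO, IFNB1, IFNL1 and IFNL2 had at most 5 counts in any library of either line, and IFNL1 alone of the 6 was called lower.

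Chemokines that attract T cells followed the interferons, and all 5 tested members of 7 listed were lower in DKO (22.4% of all genes were called lower). CX3CL1 and CXCL9 were listed but not tested. CXCL10 and CXCL11, near 0 in DKO, passed the count filter through groups where they were high. The count of 5 is thus not independent support. CXCL10, a ligand of CXCR3, had 0 and 3 counts in DKO, against 1382 and 1867 counts in SCR, a ratio of SCR over DKO of 757 (95% counting interval 259 to 3674). CXCL11, another CXCR3 ligand, had 2 and 1 counts in DKO, against 675 and 909 in SCR, a ratio of 369 (126 to 1792). CCL5, which attracts T cells, stood at 4.21 and 3.97 CPM in DKO and 347 and 359 CPM in SCR (-6.42 ± 0.08, adjusted p = 1.8e-27), so the DKO level was 1.17% of that in SCR. The membrane-bound CXCL16 differed less, at 19.6 and 19.2 CPM in DKO and 56.3 and 53.8 CPM in SCR (-1.50 ± 0.08, adjusted p = 3.8e-14). In each of these genes both DKO libraries lay below both SCR libraries, as in every gene called lower.

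Interferon-stimulated effectors were lower without exception among the listed genes that were tested. GBP6, GBP7 and APOL4 were listed but not tested, and 22.4% of all genes were called lower. GBP5, with 5 counts over both DKO libraries, passed the count filter through other groups, as CXCL10 did. All 35 antiviral effectors were lower, with a median log2 fold change of -4.55, as were 7 of 7 genes of the ISG15 system (-5.32), 5 of 5 tested guanylate-binding proteins (-5.57) and 10 of 10 tested PARP and APOL genes (-3.19). IFIT1, which binds the ends of foreign RNA (ENSG00000185745, chromosome 10, 89392546 to 89406487, plus strand, GRCh38), stood at 6.74 and 7.38 CPM in DKO and 2088 and 2169 CPM in SCR (-8.25 ± 0.13, adjusted p = 3.5e-15). That is 0.329% of the SCR level. MX1, a GTPase that blocks viral replication, stood at 15.1 and 18.8 CPM in DKO and 2188 and 2154 CPM in SCR (-7.02 ± 0.09, adjusted p = 2.8e-21). MX2, its paralogue, stood at 0.407 and 0.378 CPM in DKO and 390.3 and 399.7 CPM in SCR (-9.95 ± 0.24, adjusted p = 5.0e-11), and RSAD2, which makes a chain-terminating nucleotide, at 0.668 and 0.71 CPM in DKO and 572 and 592 CPM in SCR (-9.72 ± 0.34, adjusted p = 2.2e-08). These were the largest differences of the antiviral list, and both genes were near the floor in DKO.

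OAS2, which makes the activator of RNase L, stood at 18.8 and 18 CPM in DKO and 1350.0 and 1400.1 CPM in SCR (-6.22 ± 0.06, adjusted p = 2.3e-29). IFI44L differed by -6.28 ± 0.07, adjusted p = 1.5e-28. The ubiquitin-like modifier ISG15 stood at 9.24 and 9.6 CPM in DKO and 549 and 476 CPM in SCR (-5.77 ± 0.17, adjusted p = 2.0e-09), its ligase HERC5 at 1.05 and 0.993 CPM in DKO and 170.0 and 162 CPM in SCR (-7.33 ± 0.09, adjusted p = 4.0e-27), and its protease USP18, which also dampens the interferon receptor, at 3.46 and 4.78 CPM in DKO and 224 and 210.1 CPM in SCR (-5.77 ± 0.10, adjusted p = 6.2e-25). The modifier, this ligase and this protease were thus lower in both DKO libraries than in both SCR libraries, as was every gene called lower. GBP4 stood at 0.349 and 0.473 CPM in DKO and 82 and 84.6 CPM in SCR (-7.70 ± 0.17, adjusted p = 1.6e-22) and GBP1 at 3.37 and 3.5 CPM in DKO and 159 and 166 CPM in SCR (-5.57 ± 0.14, adjusted p = 5.6e-16); both encode GTPases that act on intracellular pathogens. PARP14, an ADP-ribosyltransferase, differed less (-3.54 ± 0.05, adjusted p = 4.2e-27), at 161 and 169 CPM in DKO and 1926 and 1926 CPM in SCR. PARP9 and its ubiquitin ligase partner DTX3L differed by -3.74 ± 0.05 and -3.13 ± 0.05, and APOL6 by -2.80 ± 0.05. The smallest difference of the antiviral effectors was that of SLFN11 (-0.74 ± 0.06, adjusted p = 3.2e-10). Summed over these 57 genes, the level was 1758 and 1757 CPM in DKO and 30549 and 30880.0 CPM in SCR. The level of the same sum after DMSO was 1639.5 and 1652 CPM in DKO and 3672 and 3732 CPM in SCR.

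**Figure D2:**
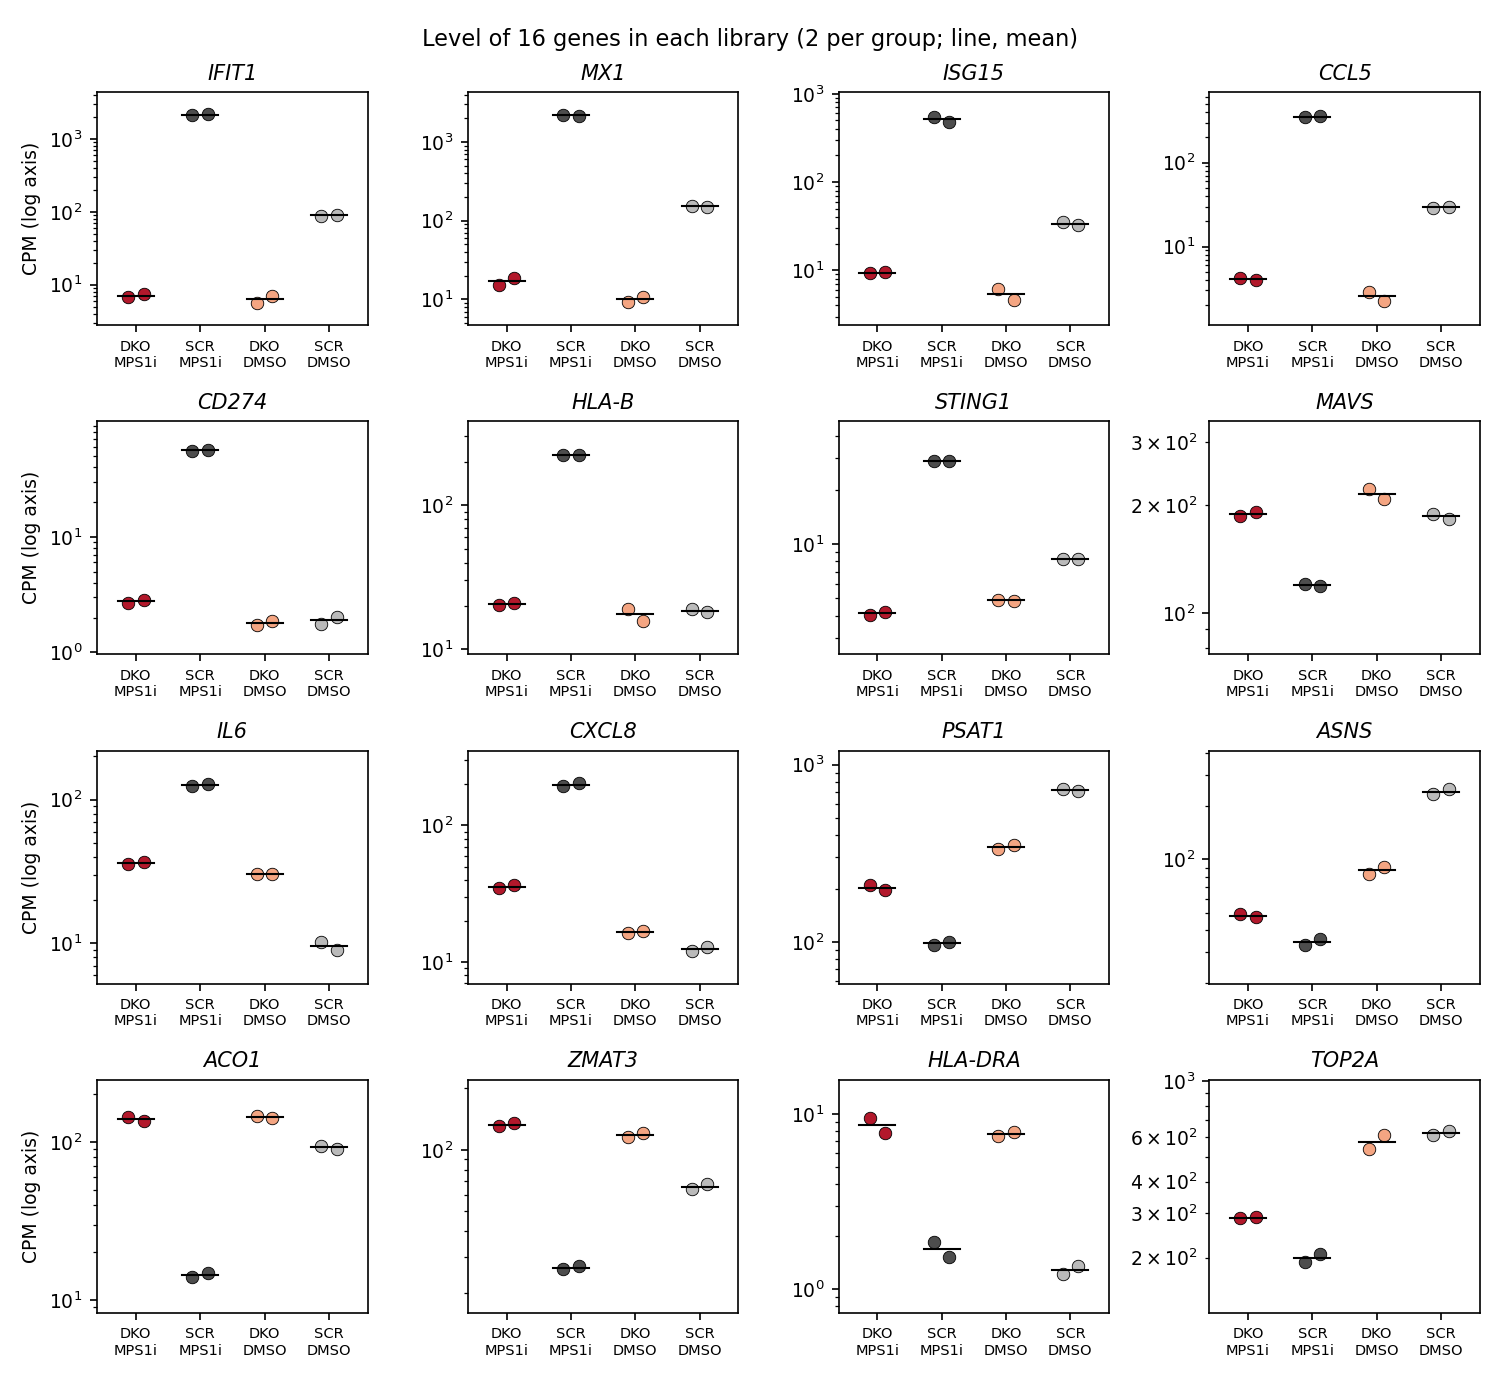
Level of 16 genes in each library, in CPM on a log axis, for DKO and SCR after MPS1i and after DMSO; points are libraries (2 per group) and lines are means. ISG15 lies at 9.24 and 9.6 CPM in DKO after MPS1i and at 549 and 476 in SCR, while ACO1 lies at 144 and 135 in DKO and 14 and 14.8 in SCR.

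Promoters of 6 genes are shown because their transcripts carry the difference and because the DNA element bound by interferon-activated transcription factors and by IRF factors can be read in them. The motif searched was GAAA, any 2 bases, then GAAA again, on both strands of the 300 bases around each start (250 before, 50 after), in RefSeq promoters of GRCh38.p14. It is held by 3.57% of all 35116 promoters in that table, overlapping matches counted once per promoter. In the stretches below, written 5′ to 3′ on the gene's strand, capitals mark the match or overlapping matches, read as its reverse complement (a pair of TTTC) where it lies on the other strand. They come from chr10:89392482-89392554 (plus strand) for IFIT1, chr2:6877607-6877666 (plus strand) for RSAD2, chr1:1013359-1013424 (plus strand) for ISG15, chr4:76023684-76023743 (minus strand) for CXCL10, chr19:39296168-39296233 (plus strand) for IFNL1 and chr15:44711348-44711413 (plus strand) for B2M. IFNL1 is a gene switched on by IRF factors, and B2M encodes the light chain of MHC class I. RSAD2 has 2 promoters in the table, and that with the match is shown.
IFIT1: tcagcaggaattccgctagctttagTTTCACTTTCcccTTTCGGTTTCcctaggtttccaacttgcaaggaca
RSAD2: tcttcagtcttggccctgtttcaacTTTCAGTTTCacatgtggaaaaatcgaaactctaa
ISG15: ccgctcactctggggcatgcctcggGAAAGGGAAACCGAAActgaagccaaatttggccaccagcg
CXCL10: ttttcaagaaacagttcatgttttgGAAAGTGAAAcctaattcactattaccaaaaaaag
IFNL1: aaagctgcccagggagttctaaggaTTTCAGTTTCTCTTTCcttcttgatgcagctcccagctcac
B2M: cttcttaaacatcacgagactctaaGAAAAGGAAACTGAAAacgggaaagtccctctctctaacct

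IFIT1, ISG15, IFNL1 and B2M each held 2 matches in the window, and RSAD2 and CXCL10 held 1. The matches lay between 103 and 221 bases before the RefSeq start. For IFIT1 and B2M the gene start given in this text lies upstream of that start, so their matches lie nearer to it. The stretch printed for IFIT1 runs past that gene start. A match is a description of the sequence and not evidence of binding. Promoters were in the table for under 80% of the tested protein-coding genes (11119 of 14097 looked up by symbol). The shares of promoters with the motif describe those genes only, and their differences were not tested. They were 8.23% of 2878 genes called lower, 2.96% of 5342 not called and 2.45% of 2899 called higher. Among genes at least 2-fold lower the share was 18.4% of 598, and at least 10-fold lower 43.5% of 108. Of listed genes with a promoter, 18 of 26 antiviral effectors, 4 of 8 interferons and 2 of 4 T cell chemokines held it. The promoters printed above all hold a match and thus do not represent these lists.

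Genes of nucleic acid sensing, a list of sensors, adaptors and related factors, were lower with the effectors. Of its 25 genes, 22 were lower, with a list median of -2.06, and 1 was higher, which is MAVS itself. The RNA sensor RIG-I (listed as DDX58) stood at 42.4 and 37.8 CPM in DKO and 1223 and 1330.2 CPM in SCR (-4.99 ± 0.07, adjusted p = 3.4e-24). MDA5 (IFIH1), which detects long double-stranded RNA, stood at 15.5 and 17.4 CPM in DKO and 668 and 722 CPM in SCR (-5.41 ± 0.08, adjusted p = 2.7e-23). The nuclear DNA sensor IFI16 stood at 100.0 and 98.8 CPM in DKO and 905 and 923 CPM in SCR (-3.20 ± 0.05, adjusted p = 4.9e-26), and SAMHD1, which degrades the nucleotides viruses need, at 12.5 and 13.2 CPM in DKO and 219 and 229 CPM in SCR (-4.14 ± 0.07, adjusted p = 4.7e-25). CGAS, the sensor upstream of STING, differed little by comparison, at 40.8 and 39.6 CPM in DKO and 60.6 and 69.3 CPM in SCR (-0.69 ± 0.08, adjusted p = 8.5e-08). Among the signal carriers, TBK1 was lower by a small amount (-0.52 ± 0.06, adjusted p = 8.1e-08), and IRF3 was not called (-0.22 ± 0.10, adjusted p = 0.065).

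Genes that relay the signal of interferon receptors to the nucleus were mostly lower. Of 22 JAK-STAT and IRF genes, 16 were lower and 0 higher, with a median of -0.46. STAT2, a transcription factor activated by the receptors, stood at 52.8 and 53.2 CPM in DKO and 495 and 489.9 CPM in SCR (-3.22 ± 0.05, adjusted p = 2.0e-25). IRF7, which amplifies interferon production, stood at 2.24 and 2.37 CPM in DKO and 56.4 and 53 CPM in SCR (-4.58 ± 0.11, adjusted p = 2.6e-21). The receptor subunit IFNAR1 differed by 0.08 ± 0.05 (adjusted p = 0.24), IFNAR2 by -0.18 ± 0.09 (0.097), JAK1 by 0.06 ± 0.04 (0.28) and TYK2 by -0.22 ± 0.13 (0.2), none of them called. The type III receptor subunit IFNLR1 was lower (-1.05 ± 0.21, adjusted p = 2.5e-04), and so were JAK2 (-0.81 ± 0.07, adjusted p = 1.1e-10) and, by smaller amounts, IFNGR1, IFNGR2 and IL10RB. With upper quartile or total count scaling, 15 genes of the list were lower and 2 higher. ADAR, which edits double-stranded RNA, was lower (561 and 553 CPM in DKO and 1759 and 1747 CPM in SCR; -1.65 ± 0.04, adjusted p = 1.3e-21), as was PNPT1, which degrades RNA in mitochondria (-3.21 ± 0.07, adjusted p = 1.2e-20). They led a list of 16 genes that keep endogenous double-stranded RNA in check, of which 8 were lower and 1, TASOR, was higher (median -0.15). The call of TASOR (0.15 ± 0.05, adjusted p = 0.027) was lost without DKO replicate 2 (adjusted p = 0.12) and without SCR replicate 1 (0.27).

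Antigen presentation split by class. All 21 MHC class I genes were lower in DKO (median -2.17), and 7 of 11 tested MHC class II genes were higher (22.6% of all genes were called higher; list median 1.15). B2M, the light chain of every class I molecule (ENSG00000166710, chromosome 15, 44711487 to 44718851, plus strand, GRCh38), stood at 349 and 389 CPM in DKO and 2379.6 and 2457 CPM in SCR (-2.71 ± 0.05, adjusted p = 6.3e-24). The heavy chain HLA-B stood at 20.3 and 21 CPM in DKO and 223 and 223 CPM in SCR (-3.44 ± 0.07, adjusted p = 3.3e-23), and HLA-E, which is read by natural killer cells, at 57 and 57.4 CPM in DKO and 313 and 302 CPM in SCR (-2.43 ± 0.05, adjusted p = 2.1e-22). The peptide transporter subunit TAP2 differed by -2.47 ± 0.05, adjusted p = 1.2e-22, the immunoproteasome subunit PSMB9 by -4.18 ± 0.11, adjusted p = 1.9e-20, and the class I transactivator NLRC5 by -3.62 ± 0.08, adjusted p = 2.4e-22. The chaperones CALR, PDIA3 and CANX differed least of the list, by -0.53 ± 0.05, -0.46 ± 0.04 and -0.25 ± 0.05. HLA genes are alike in sequence, so reads may be split between them.

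The class II genes were low in both lines and higher in DKO. HLA-DRA stood at 9.47 and 7.81 CPM in DKO and 1.86 and 1.53 CPM in SCR (2.37 ± 0.16, adjusted p = 6.8e-12), HLA-DPB1 at 1.57 and 2.37 CPM in DKO and 0.394 and 0.455 CPM in SCR (2.17 ± 0.35, adjusted p = 1.1e-05), and the invariant chain CD74 at 6.59 and 6.58 CPM in DKO and 3.04 and 2.57 CPM in SCR (1.24 ± 0.16, adjusted p = 3.3e-07). CIITA, the transactivator of class II genes, was not called (4.12 and 3.64 CPM in DKO and 3.83 and 2.69 CPM in SCR; 0.27 ± 0.19, adjusted p = 0.27). Members called lower were CTSS, a protease that trims the invariant chain, at 7.12 and 6.24 CPM in DKO and 57.7 and 59.9 CPM in SCR (-3.12 ± 0.09, adjusted p = 1.7e-19), and HLA-DOB (-2.05 ± 0.68, adjusted p = 0.016). HLA-DOB was no longer called by DESeq2 (adjusted p = 0.095), nor without DKO replicate 1 (0.17), SCR replicate 1 (0.067) or SCR replicate 2 (0.057).

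Checkpoint genes and ligands of the receptor NKG2D, counted as 1 list, were more often lower than higher. Of 13 checkpoint and NKG2D ligand genes, 8 were lower and 2 higher, with a median of -0.64. CD274, which encodes PD-L1, stood at 2.7 and 2.84 CPM in DKO and 55.7 and 55.9 CPM in SCR (-4.34 ± 0.11, adjusted p = 8.2e-21), PDCD1LG2, which encodes PD-L2, at 0.755 and 0.946 CPM in DKO and 12.3 and 12.6 CPM in SCR (-3.89 ± 0.24, adjusted p = 6.3e-13), and LGALS9, which encodes galectin-9, at 0.726 and 0.52 CPM in DKO and 51.2 and 50.1 CPM in SCR (-6.28 ± 0.17, adjusted p = 8.9e-21). IDO1, which breaks down tryptophan, had 1 count in each DKO library, against 152 and 175 counts in SCR, a ratio of SCR over DKO of 114 (95% counting interval 31.4 to 948). The stress ligand ULBP1 was higher, at 7.47 and 7.52 CPM in DKO and 3.15 and 3.19 CPM in SCR (1.24 ± 0.12, adjusted p = 2.1e-09), while its relative MICB was lower (-1.27 ± 0.11, adjusted p = 2.0e-10). MICA was also called higher (0.23 ± 0.09, adjusted p = 0.036), a call lost without DKO replicate 2 (adjusted p = 0.26), without SCR replicate 2 (0.21), at equal depth (0.059) and with DESeq2 (0.079).

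Genes of the death receptor pathway and of inflammatory cell death were lower, 14 of 18, with a median of -0.82. The death ligand TRAIL (TNFSF10) stood at 5.05 and 4.16 CPM in DKO and 210.4 and 225 CPM in SCR (-5.54 ± 0.09, adjusted p = 4.4e-25). CASP1, the inflammasome protease, stood at 2.29 and 3.41 CPM in DKO and 50.2 and 47.1 CPM in SCR (-4.14 ± 0.12, adjusted p = 1.0e-19), and MLKL, the executor of necroptosis, at 35.1 and 36.8 CPM in DKO and 132 and 136 CPM in SCR (-1.91 ± 0.06, adjusted p = 5.2e-19). The decoy TRAIL receptor TNFRSF10D went the other way, at 88 and 91.8 CPM in DKO and 20.8 and 17.1 CPM in SCR (2.25 ± 0.08, adjusted p = 1.7e-18), as did TNFRSF1A, a receptor for TNF (0.49 ± 0.06, adjusted p = 6.5e-08). Among 18 BCL2 family genes, 4 were lower and 4 higher, shares close to those of all genes. The lower ones were led by the BH3-only activator PMAIP1 at 92.8 and 88.4 CPM in DKO and 290.3 and 304 CPM in SCR (-1.71 ± 0.05, adjusted p = 4.8e-19), the survival protein MCL1 (-1.06 ± 0.04, adjusted p = 1.6e-16) and the BH3-only BCL2L11 (-0.91 ± 0.06, adjusted p = 2.5e-12). The higher ones were BAX (0.66 ± 0.08, adjusted p = 2.7e-07), BAD, BOK and the mitophagy receptor BNIP3L (0.72 ± 0.05, adjusted p = 4.3e-12). With upper quartile or total count scaling, 6 members were higher.

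Inflammatory cytokines and their NF-kB and AP-1 regulators were lower after the pulse. Of 12 tested cytokines, 10 were lower (median -1.47). CXCL8, which attracts neutrophils, stood at 34.7 and 36.3 CPM in DKO and 193 and 204 CPM in SCR (-2.49 ± 0.06, adjusted p = 4.1e-21), IL6 at 35.9 and 36.9 CPM in DKO and 124 and 128 CPM in SCR (-1.79 ± 0.06, adjusted p = 1.0e-18), and CXCL1 at 15.3 and 12.3 CPM in DKO and 48.3 and 49.5 CPM in SCR (-1.80 ± 0.09, adjusted p = 9.8e-15). IL1B was the member called higher, at 2.38 and 1.89 CPM in DKO and 0.928 and 0.82 CPM in SCR (1.30 ± 0.32, adjusted p = 0.0016). Of 16 NF-kB genes, 15 were lower and 0 higher (median -0.77). TNFAIP3, which encodes the feedback inhibitor A20, stood at 49.7 and 50.6 CPM in DKO and 205 and 209 CPM in SCR (-2.05 ± 0.06, adjusted p = 2.1e-20), and BIRC3, an inhibitor of apoptosis protein, at 179.9 and 198 CPM in DKO and 482 and 490.1 CPM in SCR (-1.37 ± 0.05, adjusted p = 2.1e-17). ICAM1, an adhesion molecule of this list, differed by only -0.22 ± 0.09, adjusted p = 0.04, and its call was lost without DKO replicate 2 (adjusted p = 0.32), SCR replicate 1 (0.075) or SCR replicate 2 (0.21). Of 16 immediate early genes, 13 were lower and 0 higher (median -0.67), among them the transcription factors EGR1 at 4.71 and 4.4 CPM in DKO and 32.7 and 30.2 CPM in SCR (-2.78 ± 0.12, adjusted p = 5.7e-16), FOSB (-2.30 ± 0.18, adjusted p = 4.4e-11) and ATF3 (-2.04 ± 0.09, adjusted p = 2.7e-16). MYC was not called (-0.07 ± 0.05, adjusted p = 0.27).

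Among metabolic lists, genes of the amino acid response were more often higher than lower in DKO after the pulse. Of 32 genes regulated by ATF4, the factor of the amino acid response, 19 were higher and 5 lower, with a median of 0.26. PSAT1, a serine synthesis enzyme, stood at 208 and 196 CPM in DKO and 96.6 and 100.2 CPM in SCR (1.04 ± 0.05, adjusted p = 3.3e-15), and PYCR1, a proline synthesis enzyme, at 35.8 and 34.5 CPM in DKO and 15.7 and 14.1 CPM in SCR (1.24 ± 0.08, adjusted p = 1.1e-12). ASNS, which makes asparagine, stood at 49.1 and 47.1 CPM in DKO and 33 and 35.5 CPM in SCR (0.49 ± 0.07, adjusted p = 7.4e-07), and the cystine importer SLC7A11 at 1783 and 1810.0 CPM in DKO and 1199.6 and 1277 CPM in SCR (0.54 ± 0.05, adjusted p = 2.9e-10). The strongest exception was WARS1, a tRNA synthetase known to be induced by interferon, at 207 and 206 CPM in DKO and 1509 and 1504 CPM in SCR (-2.87 ± 0.05, adjusted p = 2.6e-25). Lower members with smaller differences were DDIT3, SLC6A9, CHAC1 and VLDLR, of which CHAC1 (-0.49 ± 0.17, adjusted p = 0.021) was lost without DKO replicate 1 (adjusted p = 0.11), DKO replicate 2 (0.075) or SCR replicate 2 (0.12), and VLDLR (-0.15 ± 0.05, adjusted p = 0.012) without DKO replicate 1 (0.18) or SCR replicate 1 (0.17).

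Cholesterol synthesis genes were more often lower, 11 of 23, with 4 higher (median -0.18). STARD4, a sterol carrier, stood at 136 and 134 CPM in DKO and 367 and 388 CPM in SCR (-1.48 ± 0.05, adjusted p = 4.1e-18), and the pathway enzyme HMGCS1 at 478 and 496 CPM in DKO and 879.6 and 868 CPM in SCR (-0.84 ± 0.04, adjusted p = 9.3e-15). With total count scaling 8 were lower and 5 higher. Of 18 glycolysis genes, 7 were higher and 4 lower (median 0.10; 9 and 1 with total count scaling). PFKFB3, which makes an activator of glycolysis, stood at 119 and 119 CPM in DKO and 48.7 and 46.6 CPM in SCR (1.32 ± 0.05, adjusted p = 6.2e-17), and PFKM differed by 0.73 ± 0.06, adjusted p = 2.6e-10. The lower PGAM1 differed by -0.72 ± 0.04, adjusted p = 3.3e-13. Of 25 NRF2 targets, 11 were higher and 7 lower (median 0.10; 14 and 4 with total count scaling), with FTL, the ferritin light chain, at 0.47 ± 0.06 and the exporter ABCC2 at -0.55 ± 0.04. Of 27 respiratory chain genes, 8 were higher and 2 lower (median 0.04). The medians of these 3 lists were at most 0.1, against 0 for all genes.

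The target of the drug and the main proliferation marker did not differ detectably between the lines. TTK stood at 34.4 and 35.3 CPM in DKO and 31.4 and 36 CPM in SCR (0.04 ± 0.07, adjusted p = 0.68), and MKI67 at 472 and 485 CPM in DKO and 502 and 494 CPM in SCR (-0.06 ± 0.05, adjusted p = 0.34). The sign of the MKI67 value turned with upper quartile and total count scaling (0.01 and 0.03), and that of TTK without SCR replicate 1 (-0.04). Of 39 spindle and mitosis genes, 19 were higher and 5 lower in DKO (median 0.16; 27 higher and 1 lower with total count scaling). TOP2A, which untangles chromosomes, stood at 287 and 289 CPM in DKO and 193 and 206 CPM in SCR (0.53 ± 0.05, adjusted p = 8.3e-09), the centromere protein CENPF at 233 and 234 CPM in DKO and 149 and 154 CPM in SCR (0.63 ± 0.06, adjusted p = 1.6e-08), cyclin B1 (CCNB1) at 94.2 and 90.7 CPM in DKO and 67.6 and 68.2 CPM in SCR (0.45 ± 0.05, adjusted p = 4.8e-08), and the cytokinesis kinesin KIF20A at 32.3 and 29.5 CPM in DKO and 17.2 and 16.4 CPM in SCR (0.88 ± 0.07, adjusted p = 8.0e-11). The lower members were ECT2, a cytokinesis factor (-0.36 ± 0.05, adjusted p = 3.7e-06), and BUB1, CDK1, ESPL1 and FOXM1, whose differences lay between -0.26 and -0.19. Of these, BUB1 was not called without DKO replicate 1 (adjusted p = 0.087) or SCR replicate 2 (0.062), CDK1 without DKO replicate 1 (0.095), DKO replicate 2 (0.11) or SCR replicate 2 (0.4), and ESPL1 without DKO replicate 1 (0.1), DKO replicate 2 (0.056) or SCR replicate 1 (0.1).

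DNA replication genes leaned the other way, with 17 of 40 lower and 4 higher (median -0.20; 14 lower and 9 higher with total count scaling). ORC1, of the origin recognition complex, stood at 23.6 and 24.2 CPM in DKO and 40.9 and 39.2 CPM in SCR (-0.74 ± 0.08, adjusted p = 2.2e-08), and GINS1, of the replicative helicase, differed by -0.64 ± 0.08, adjusted p = 1.2e-07. TYMS, which makes thymidylate, was higher (0.41 ± 0.05, adjusted p = 8.3e-08). Replication histone genes were higher, 21 of 32, with 4 lower (median 0.48). The linker histone H1-5 stood at 138 and 132 CPM in DKO and 65.6 and 64.9 CPM in SCR (1.05 ± 0.06, adjusted p = 9.7e-14), H1-2 at 151 and 143 CPM in DKO and 88 and 82.3 CPM in SCR (0.79 ± 0.06, adjusted p = 2.3e-11), and H4C4 at 35.9 and 35.7 CPM in DKO and 12.5 and 13.6 CPM in SCR (1.45 ± 0.11, adjusted p = 4.0e-09). As poly(A) RNA was enriched, these values cover only histone transcripts captured that way, and histone genes are near copies of each other.

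Genes of a list of p53 targets and cell cycle inhibitors were higher in 17 of 27 cases and lower in 6, CDKN1B among the lower ones (median 0.34). ZMAT3, an RNA-binding protein, stood at 130.1 and 135 CPM in DKO and 25.9 and 27 CPM in SCR (2.32 ± 0.06, adjusted p = 1.1e-21), and SPATA18, which acts in mitochondrial quality control, at 27.3 and 28.6 CPM in DKO and 8.47 and 8.34 CPM in SCR (1.73 ± 0.08, adjusted p = 3.0e-15). The ribonucleotide reductase subunit RRM2B differed by 0.63 ± 0.05, adjusted p = 2.6e-11, and the cell cycle inhibitor CDKN1A by 0.55 ± 0.11, adjusted p = 0.0015. Members that were lower were led by the death receptor FAS (-0.69 ± 0.05, adjusted p = 6.0e-11) and included MDM2, the ubiquitin ligase for p53 (-0.23 ± 0.05, adjusted p = 2.9e-04). GDF15 was not called (-0.14 ± 0.15, adjusted p = 0.5).

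**Figure D3:**
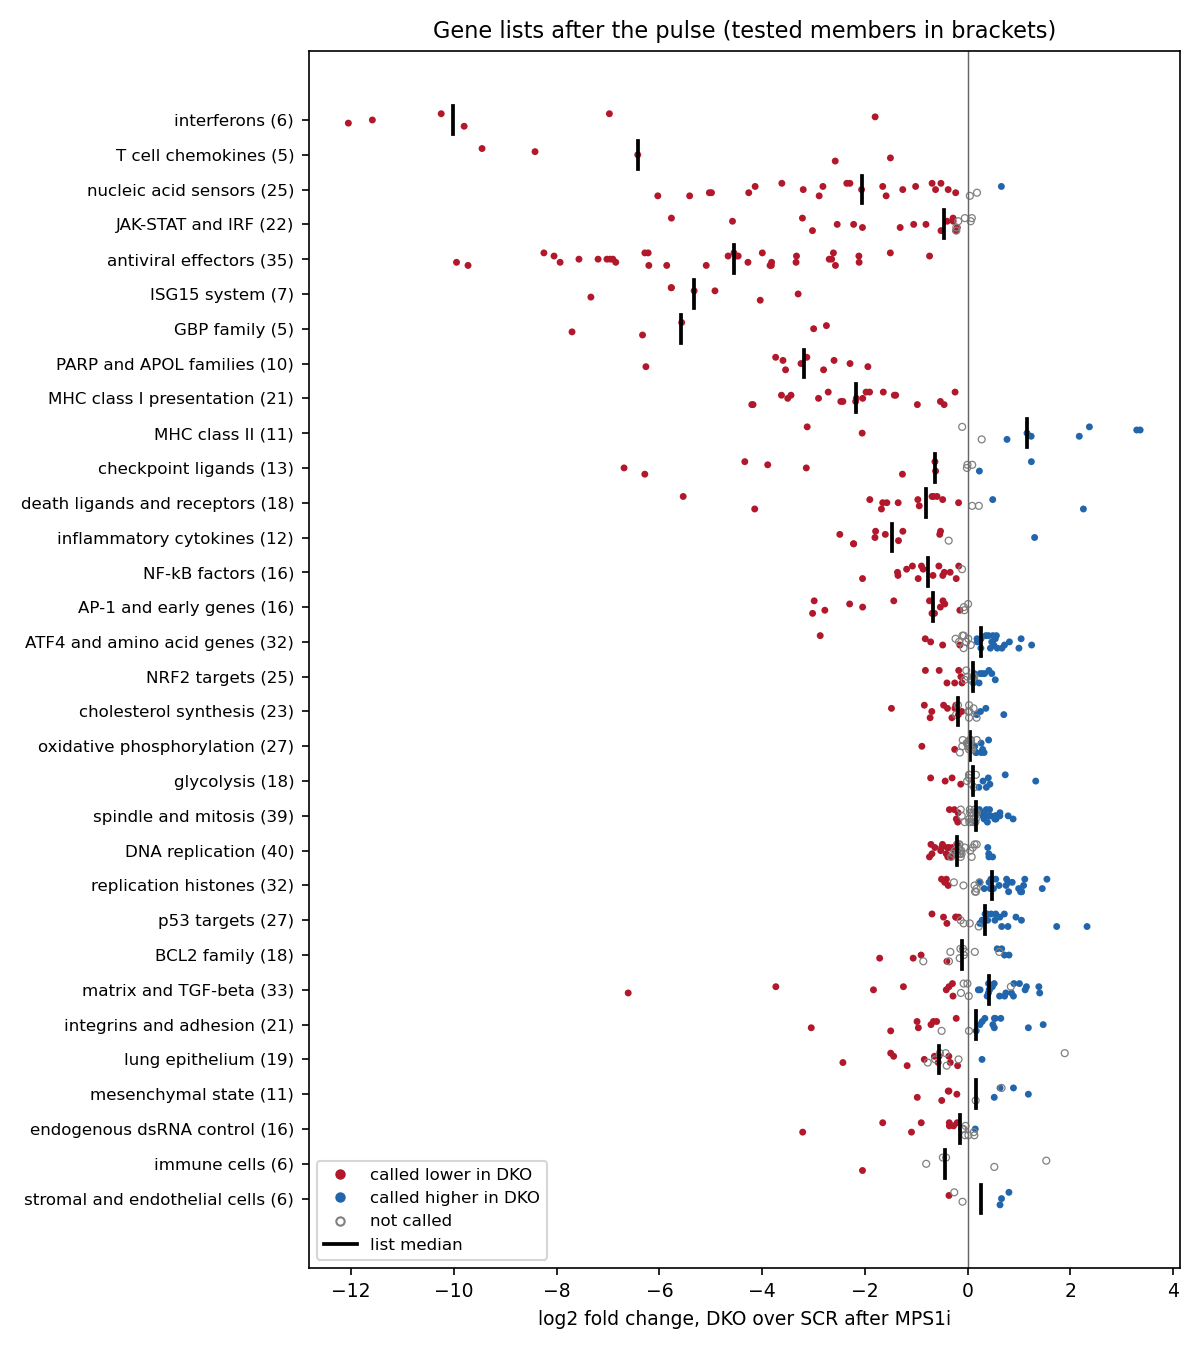
Log2 fold change of DKO over SCR after MPS1i for each tested member of 32 gene lists; points are genes, coloured where called, and bars are list medians. The medians of the rows from interferons to MHC class I lie left of 0, down to -10.02, and that of MHC class II (1.15) lies right of it; for genes at 0 counts in DKO the fitted value depends on the prior count and is no bound.

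Matrix and TGF-beta genes were higher in 20 of 33 cases and lower in 8 (median 0.41). THBS1, which encodes thrombospondin-1, stood at 136 and 125 CPM in DKO and 58.4 and 61.8 CPM in SCR (1.12 ± 0.06, adjusted p = 9.0e-15), TGFBI at 1286 and 1272 CPM in DKO and 756 and 772 CPM in SCR (0.74 ± 0.05, adjusted p = 7.8e-13), and the collagen COL6A2 at 66.9 and 63.9 CPM in DKO and 26.1 and 24.1 CPM in SCR (1.39 ± 0.08, adjusted p = 1.7e-13). Members that act in matrix breakdown were among the lower ones, with the collagenase MMP13 at 2 and 1 counts in DKO and 193 and 257 counts in SCR, a ratio of SCR over DKO of 105 (95% counting interval 35.7 to 511), and the urokinase receptor PLAUR at 50.9 and 56.3 CPM in DKO and 127 and 128 CPM in SCR (-1.25 ± 0.07, adjusted p = 3.5e-14). Integrins and adhesion molecules were mixed, 11 of 21 higher and 8 lower (median 0.17). The integrin subunit ITGB3 stood at 69.7 and 66.3 CPM in DKO and 24.8 and 24.4 CPM in SCR (1.47 ± 0.07, adjusted p = 7.6e-16), whereas the adhesion molecules CEACAM5 and CEACAM6 were lower, CEACAM5 at 10.9 and 10.8 CPM in DKO and 85.4 and 93.3 CPM in SCR (-3.04 ± 0.08, adjusted p = 4.6e-21) and CEACAM6 by -1.50 ± 0.04, adjusted p = 7.7e-20. E-cadherin (CDH1) was lower (36.7 and 38.9 CPM in DKO and 61 and 62.8 CPM in SCR; -0.71 ± 0.06, adjusted p = 1.2e-10), while N-cadherin (CDH2) was higher (23.3 and 22.4 CPM in DKO and 10.5 and 9.72 CPM in SCR; 1.18 ± 0.11, adjusted p = 1.6e-09), as were vimentin (VIM; 0.63 ± 0.05, adjusted p = 1.3e-10) and fibronectin (FN1; 0.52 ± 0.05, adjusted p = 6.8e-09). The list of 11 mesenchymal genes held 4 higher members, which were CDH2, VIM, FN1 and SPARC, and 5 lower ones. The genes named above are thus drawn from its higher members. The transcription factor ZEB1 was lower (-0.38, adjusted p = 8.3e-06). The sign of the list's median (0.16) turned at equal depth (-0.1).

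Lung epithelial genes were lower in 11 of 19 tested cases, with KRT7 higher (median -0.56). AGR2, which folds mucins, stood at 0.436 and 0.899 CPM in DKO and 2.67 and 4.08 CPM in SCR (-2.43 ± 0.30, adjusted p = 3.0e-07). The mucin MUC16 stood at 90.2 and 88.9 CPM in DKO and 235 and 251 CPM in SCR (-1.44 ± 0.05, adjusted p = 5.2e-18), MUC5B at 39.5 and 42.6 CPM in DKO and 116 and 115 CPM in SCR (-1.50 ± 0.09, adjusted p = 2.0e-09), and MUC5AC at 29.9 and 30.1 CPM in DKO and 67.1 and 68.6 CPM in SCR (-1.18 ± 0.07, adjusted p = 2.9e-13). Of markers of other cell types, 1 of 6 tested immune genes was lower, CD68 (135 and 126 CPM in DKO and 529 and 556 CPM in SCR; -2.05 ± 0.07, adjusted p = 4.0e-15), a lysosomal protein. The immune list summed to 138 and 128 CPM in DKO and 532 and 559 CPM in SCR, nearly all of it CD68. Of 6 tested stromal genes, ACTA2, DCN and FAP were higher and COL1A1 lower (a call lost without DKO replicate 2 or SCR replicate 2, adjusted p = 0.27 and 0.37), with sums of 66.3 and 62.5 CPM in DKO and 47.8 and 53.5 CPM in SCR. COL1A2 had at most 1 count and PDGFRA at most 2 in each of these libraries. The stromal genes' part in the matrix differences was not tested.

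The 12 largest higher genes of all tested (mean of at least 1 CPM), which include HLA-DRA of the MHC class II list, differed by 2.37 to 3.37 on the log2 scale. CLSTN2, a calsyntenin, stood at 30.3 and 29.7 CPM in DKO and 2.98 and 2.82 CPM in SCR (3.37 ± 0.14, adjusted p = 4.4e-15). ACO1, the cytosolic aconitase that doubles as an iron regulatory protein (ENSG00000122729, chromosome 9, 32384603 to 32454769, plus strand), stood at 144 and 135 CPM in DKO and 14 and 14.8 CPM in SCR (3.27 ± 0.06, adjusted p = 5.7e-24). After DMSO it stood at 147 and 142 CPM in DKO and 94.2 and 90.4 CPM in SCR, so SCR after the pulse was the lowest of the 4 groups. MRC2, a collagen uptake receptor, stood at 18.2 and 15.4 CPM in DKO and 2.31 and 2.19 CPM in SCR (2.91 ± 0.15, adjusted p = 2.3e-14), and the retinaldehyde dehydrogenase ALDH1A3 at 2.24 and 2.13 CPM in DKO and 0.225 and 0.342 CPM in SCR (2.91 ± 0.37, adjusted p = 3.4e-07). Others of the 12 were MIR600HG, the potassium channel KCNH1, ZNF676, B4GALNT2 and GNG2. The 12 largest lower genes were IFNL1, IFNL2, IFNL3, IFNB1, CXCL10, CXCL11, MX2, RSAD2, the pseudogenes LGALS17A and GBP1P1, the long noncoding RNA NRIR, and RP11-326C3.17 (0.0871 and 0.0473 CPM in DKO and 33.4 and 33.6 CPM in SCR). NRIR, LGALS17A and GBP1P1 had 0 counts in both DKO libraries, and SCR was at least 40.2-fold higher for LGALS17A and at least 25.5-fold higher for GBP1P1. As pseudogenes with expressed relatives, the last 2 may share reads with them. In the other direction, 13 tested genes had 0 counts in both SCR libraries. That with the highest DKO mean, RP11-553L6.5, had 0 and 128 counts in DKO and was not called.

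The same genotype difference without the pulse, DKO against SCR after DMSO, shares no library with the comparison above. There 5591 genes were called (31.1%), 2837 higher (15.8%) and 2754 lower (15.3%). The split was 3353 higher and 2262 lower with total count scaling, and turned to 2715 higher and 2933 lower with RLE size factors. Of the 1049 genes at least 2-fold lower after MPS1i, 326 (31.1%) were also lower after DMSO, 54 (5.15%) were higher, and 669 (63.8%) were not called. Of the 628 genes at least 2-fold higher after MPS1i, 373 (59.4%) were also higher after DMSO, 9 (1.43%) were lower, and 246 (39.2%) were not called. These shares depend on low counts. With a mean of at least 1 CPM over the 4 libraries, 42.5% of 692 lower genes were also lower after DMSO and 50.3% were not called. Of 427 such higher genes, 70% were also higher and 28.1% were not called. The interaction term, which tests whether the genotype difference itself differs between MPS1i and DMSO, was called for 5021 genes (28%), 2415 with a more positive (13.5%) and 2606 with a more negative difference after MPS1i (14.5%). The balance turned under other scalings, to 2872 more positive and 2280 more negative with upper quartile scaling and to 2956 and 2247 with total counts. Among the 1049 lower genes it was called in the same direction for 653 (62.2%), and among the 628 higher genes for 241 (38.4%), with 371 (59.1%) not called. With a mean of at least 1 CPM, the shares in the same direction were 81.8% of 692 lower genes and 49.6% of 427 higher genes. The interaction uses the libraries of both differences, so it is not independent of either.

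Effector genes were below SCR already after DMSO, and further below after the pulse. IFIT1 stood after DMSO at 5.66 and 7.08 CPM in DKO and 87.7 and 91 CPM in SCR (-3.79 ± 0.12, adjusted p = 4.9e-11), and the interaction was -4.46 ± 0.20, adjusted p = 1.3e-09. MX1 stood at 9.33 and 10.8 CPM in DKO and 156 and 149 CPM in SCR (-3.91 ± 0.09, adjusted p = 1.7e-16). The 35 antiviral effectors had a median difference of -1.66 after DMSO, with 30 lower, and an interaction called for all 35. MHC class I and GBP genes differed less than the antiviral effectors after DMSO, with medians of -0.10 and -0.18. A negative interaction was called for 20 of 21 and 5 of 5. After DMSO, 7 of 21 class I genes were lower and 1 higher, and 1 of 5 GBP genes was lower, against 15.3% lower among all genes. B2M stood there at 356 and 373 CPM in DKO and 479 and 453 CPM in SCR (-0.36 ± 0.05, adjusted p = 3.0e-06), and HLA-B at 19 and 15.8 CPM in DKO and 19 and 18 CPM in SCR (-0.10 ± 0.08, adjusted p = 0.35). MHC class II genes were higher in DKO after DMSO too, 9 of 11 (median 1.94), with 4 negative interactions. HLA-DRA stood at 7.53 and 7.88 CPM in DKO and 1.22 and 1.36 CPM in SCR (2.59 ± 0.17, adjusted p = 8.9e-12), and its interaction was not called (-0.22 ± 0.24, adjusted p = 0.56). The interaction was likewise not called for MRC2 (2.81 ± 0.15 after DMSO, interaction adjusted p = 0.78), ALDH1A3 (2.04 ± 0.35, 0.23), B4GALNT2 (2.22 ± 0.34, 0.81) and ZNF676 (1.70 ± 0.27, 0.19), where a p that misses the threshold does not show equal differences. Among lower genes, SLC15A3, LINC02574, CH25H and TNFSF18 were called lower after DMSO too with no interaction called. SLC15A3, a peptide transporter, had 3 and 0 counts in DKO and 481 and 516 in SCR after MPS1i, a ratio of SCR over DKO of 232 (95% counting interval 79.3 to 1129), and LINC02574 had 1 and 2 against 159 and 178.

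Some genes lay on opposite sides of SCR in the 2 conditions. Over all tested genes, 629 were called in opposite directions with the interaction called, 325 of them higher and 304 lower in DKO after MPS1i. IL6 stood after DMSO at 30.4 and 30.6 CPM in DKO and 10.2 and 9.02 CPM in SCR, higher in DKO by 1.65 ± 0.07, adjusted p = 9.1e-16, while after MPS1i the difference was -1.79 ± 0.06. PSAT1 stood after DMSO at 336 and 353 CPM in DKO and 724 and 715 CPM in SCR (-1.06 ± 0.05, adjusted p = 4.1e-15), and ASNS at 82.5 and 90.7 CPM in DKO and 235 and 248 CPM in SCR (-1.48 ± 0.06, adjusted p = 3.6e-16), both lower in DKO where they were higher after the pulse. Of the 32 ATF4 genes, 25 were lower in DKO after DMSO (median -0.43), and 26 had a positive interaction. Replication histones were lower in 15 of 32 cases after DMSO (median -0.23), with 22 positive interactions, and DNA replication genes higher in 17 of 40 (median 0.18), with 24 negative ones. The matrix list had a positive median in both conditions, 0.41 after MPS1i and 0.86 after DMSO, where 25 of 33 genes were higher, and 19 had a negative interaction. FN1 stood at 177 and 172 CPM in DKO and 125 and 120.0 CPM in SCR after MPS1i and at 164 and 159 CPM in DKO and 45.4 and 45.9 CPM in SCR after DMSO (interaction -1.31 ± 0.07, adjusted p = 3.7e-13).

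**Figure D4:**
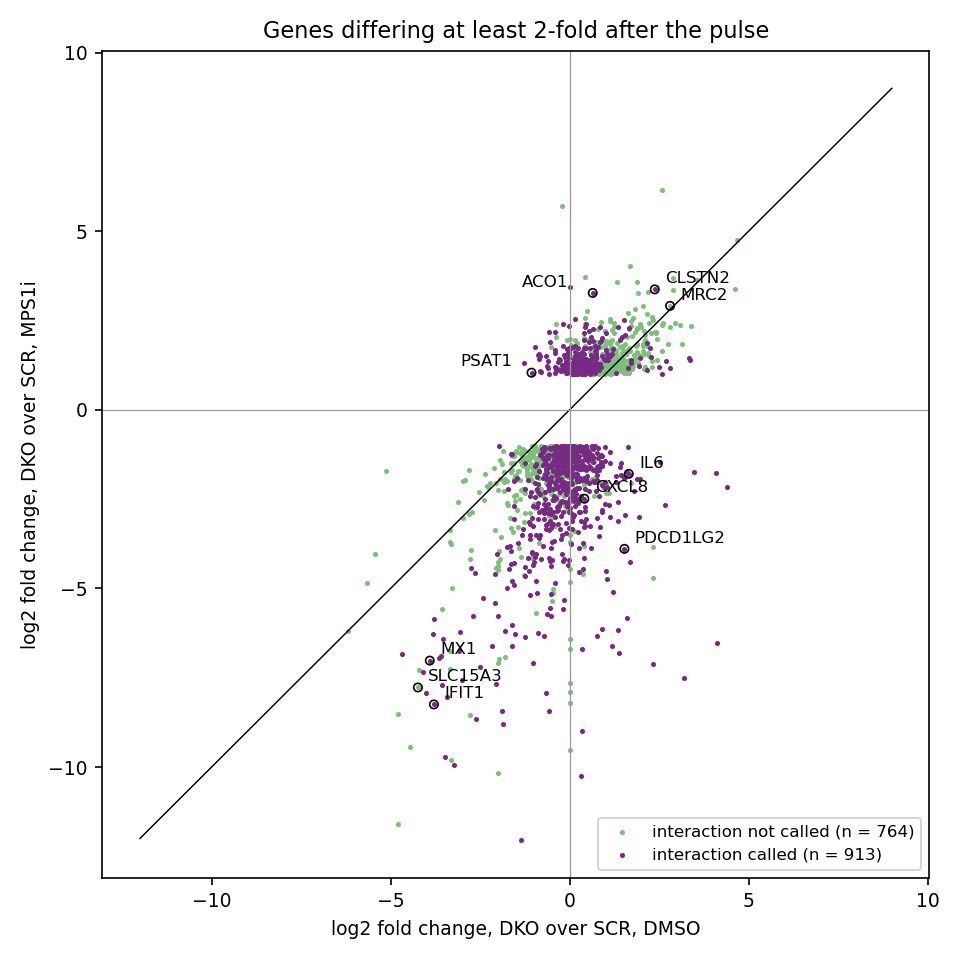
Log2 fold change of DKO over SCR after MPS1i (vertical axis) and after DMSO (horizontal axis) for the 1049 lower and 628 higher genes of at least 2-fold after MPS1i; each point is a gene, purple where the interaction was called, and the line marks equal differences. IFIT1 lies at -8.25 after MPS1i and -3.79 after DMSO, IL6 at -1.79 and 1.65.

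To place the level reached, DKO after MPS1i was set against SCR after DMSO, groups that differ in both genotype and drug. Here 7427 genes differed (41.4%), 3690 higher (20.6%) and 3737 lower (20.8%). With upper quartile scaling 4430 were higher and 2936 lower (60.1% higher, against 49.7%), and with total counts 4337 and 3014. Effectors were below the level of control cells without the pulse: 30 of 35 antiviral effectors were lower and 3 were higher (median -1.26). IFIT1 was -3.67 ± 0.12, adjusted p = 4.3e-11, MX1 -3.19 ± 0.08, adjusted p = 1.2e-15, and ISG15 -1.85 ± 0.18, adjusted p = 2.7e-05. MHC class I genes stood near the untreated level, 6 lower and 2 higher of 21 (median -0.12). Inflammatory cytokines stood above it, 8 of 12 higher and 0 lower (median 0.81), with CXCL8 at 1.51 ± 0.07, adjusted p = 1.1e-14 and IL6 at 1.91 ± 0.07, adjusted p = 4.4e-17. CD274 was also above it (0.55 ± 0.16, adjusted p = 0.0069). Mitotic genes stood below it, 38 of 39 (median -0.74), as did 32 of 32 histone genes (median -0.95) and 29 of 32 ATF4 genes (median -0.93). TTK differed there by -0.87 ± 0.07, adjusted p = 3.8e-10 and MKI67 by -0.91 ± 0.05, adjusted p = 5.6e-14. Of the 1049 genes at least 2-fold lower than in SCR after MPS1i, 347 (33.1%) were below the untreated control level and 110 (10.5%) above it, and 592 (56.4%) were not called against it. Of the 692 with a mean of at least 1 CPM, 42.5% were below it, 14% above it and 43.5% not called.

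Setting DKO beside the single knockouts after MPS1i orders the levels, since all 4 groups had the pulse. Against STING cells, 2537 genes were called (14.1%), 1157 higher (6.45%) and 1380 lower (7.69%), and against MAVS cells 4909 (27.3%), 2358 higher (13.1%) and 2551 lower (14.2%). Both splits turned with upper quartile scaling, to 1539 higher and 1144 lower against STING cells (57.4% higher, against 45.6%) and to 3144 higher and 2023 lower against MAVS cells (60.8%, against 48%). With total counts 57.1% of calls were higher against STING cells and 57.3% against MAVS cells. The DKO libraries are shared by these comparisons and the main one. The count against STING cells depended on single libraries, at 1473 without DKO replicate 1, 1684 without DKO replicate 2 and 1656 without STING replicate 2. All 35 antiviral effectors were lower in DKO than in either single line, with medians of -3.24 against STING and -3.68 against MAVS. IFIT1 averaged 7.06 ± 0.453 CPM in DKO, 693 ± 19.9 in STING, 981 ± 42.2 in MAVS and 2128 ± 57.1 in SCR (SD, n = 2 each). The fold between DKO and STING cells was larger than any other between neighbours in that order. CCL5 was placed differently, at 4.09 ± 0.168, 16.4 ± 0.0418, 236 ± 3.25 and 353 ± 8.06 CPM in the same order, with STING cells nearer to DKO than to MAVS cells. HLA-B averaged 20.6 ± 0.515, 43.2 ± 1.3, 133 ± 2.22 and 223 ± 0.193 CPM.

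Cytokine genes in DKO lay nearer to STING cells than to MAVS cells. IL6 averaged 36.4 ± 0.684 CPM in DKO, 42.6 ± 0.152 in STING, 95.4 ± 0.212 in MAVS and 126 ± 3.21 in SCR, a difference of DKO from STING of -0.23 ± 0.06, adjusted p = 0.012. CGAS in DKO was not called different from STING cells (-0.04 ± 0.08, adjusted p = 0.84). Median differences of the cytokine list were -0.38 against STING, with 6 of 12 lower, and -1.05 against MAVS, with 11 of 12 lower. ACO1, ZMAT3 and TNFRSF10D, which were higher in DKO, ran the other way round. ACO1 averaged 139 ± 6.38, 58.9 ± 1.77, 24.5 ± 1.78 and 14.4 ± 0.562 CPM in DKO, STING, MAVS and SCR, ZMAT3 133 ± 3.6, 73 ± 2.07, 41.4 ± 1.66 and 26.5 ± 0.761, and TNFRSF10D 89.9 ± 2.7, 42.9 ± 1.15, 26.7 ± 0.809 and 18.9 ± 2.6. DKO was called higher than STING cells in all of these (ACO1 1.24 ± 0.05, ZMAT3 0.86 ± 0.05, TNFRSF10D 1.07 ± 0.07). Of the 1049 lower genes of at least 2-fold, 491 (46.8%) were also called lower than in STING cells and 738 (70.4%) lower than in MAVS cells, and of the 628 higher genes, 319 (50.8%) and 412 (65.6%) were called higher. Against both single lines at once, 478 of the lower genes (45.6%) were lower and 286 of the higher genes (45.5%) higher. With a mean of at least 1 CPM, these shares were 65.8% of 692 lower genes and 64.9% of 427 higher genes. The ATF4 list, mostly higher than in SCR, had 5 higher and 9 lower members against STING cells (median -0.06).

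**Figure D5:**
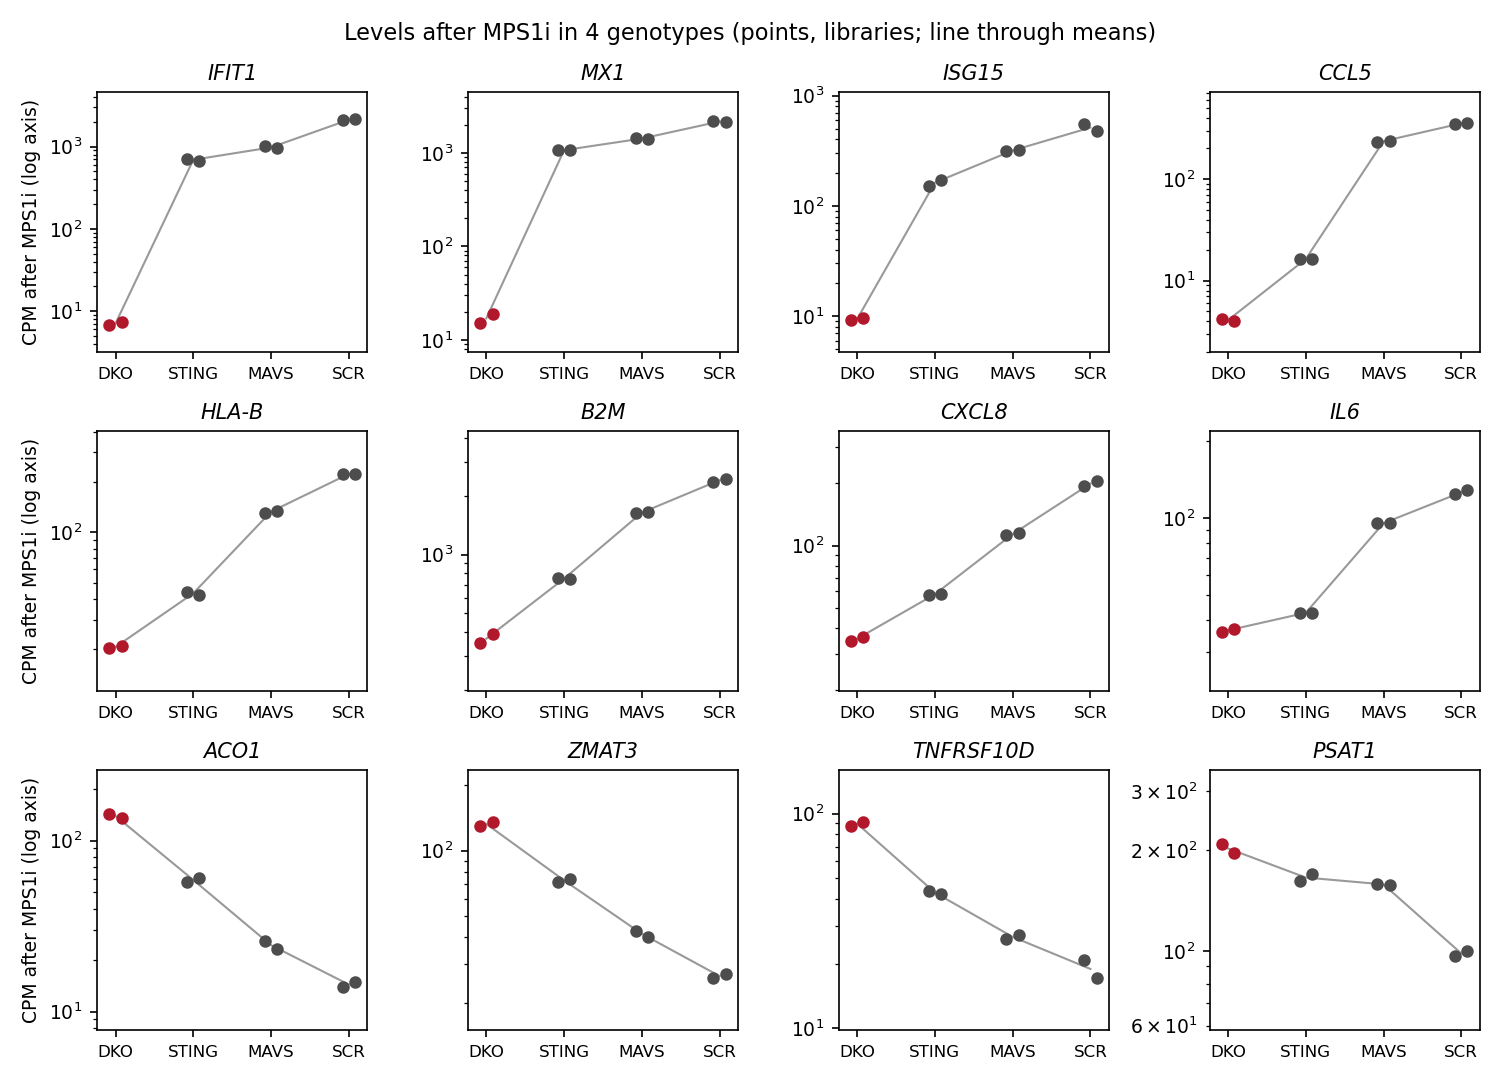
Levels of 12 genes after MPS1i in DKO, STING, MAVS and SCR cells, in CPM on a log axis; points are libraries (2 per group) and lines join the means. From DKO to SCR, MX1 averages 17, 1071, 1426 and 2171 CPM, and ACO1 139, 58.9, 24.5 and 14.4.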

How the data were processed

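Poly(A) RNA of 16 libraries (8 groups of 2) was sequenced from a stranded kit, per the labels' protocols. The deposited table holds the authors' raw counts per gene for 60612 genes, from reads trimmed with Trim Galore, cutadapt and Trimmomatic, aligned with STAR to GRCh38 and counted with featureCounts, per the submitters' processing notes; versions and the strand setting are not given in the sources used here, so overlapping and antisense genes are uncertain. Gene length in the same deposited table, a span in bases, is another value and was not used for levels. Columns were matched to samples by title.

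All 16 libraries were fitted together with edgeR 4.0.16 (R 4.3.3; TMM, robust quasi-likelihood F-test, two-sided, 8 residual degrees of freedom), keeping 17950 genes by filterByExpr (minimum count 10, minimum total 15). P-values were adjusted by Benjamini-Hochberg within each of 6 comparisons over all tested genes. The standard error is the fold change divided by the root of F. The procedure was tested on simulated data. Alternatives were other scalings, filters, equal depth, only the groups compared, the replicate block, DESeq2 1.42.0 and each library left out. Replicate numbers were not used as a block in the main fit.

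The comparison, the 32 gene lists and the named genes were chosen with earlier results of these data known. Genes named were 25 fixed ones, the 12 largest differences each way with a mean of at least 1 CPM, up to 4 members per list with the smallest adjusted p, members against their list's direction, genes called alike after DMSO with no interaction, genes at 0 counts in one line and the 4 chromosomes with the most extreme medians; further list members were named after their values were seen. Results for a few genes that these rules would name are not reported here.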

Additional observations from a re-analysis of the deposited data

Results flagged for a closer look

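The genotype difference, DKO against SCR, differed between MPS1i and DMSO by the interaction term for 5021 genes (28%), with 2415 more positive and 2606 more negative after MPS1i. The balance of these turned with upper quartile scaling (2872 and 2280). Over all genes, 629 were called on opposite sides in the 2 conditions with the interaction called, 325 higher and 304 lower in DKO after MPS1i. The 29 of them that are among the 218 genes chosen for naming are given here, and list members outside that choice are not.

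Of the 29, those lower in DKO after MPS1i and higher after DMSO had these interactions on the log2 scale. Among immune and inflammatory genes it was -5.42 for PDCD1LG2, which encodes PD-L2, -3.44 for IL6, -2.90 for CXCL8, -2.61 for the lysosomal protein CD68, -1.91 for BIRC3, -1.72 for the stress ligand MICB, -1.19 for the mitochondrial superoxide dismutase SOD2, -0.98 for ICAM1 and -0.91 for the DNA sensor CGAS. Among adhesion and matrix genes it was -1.25 for ITGB8, -1.17 for CCN1, -1 for the collagen COL4A1, -0.92 for ITGA2, -0.88 for CCN2 and -0.60 for the transcription factor ZEB1. Among metabolic genes it was -1.81 for the hexokinase HK2, -1.29 for HMGCS1, -0.95 for CHAC1, -0.92 for INSIG1, -0.85 for PGAM1, -0.64 for CBR1 and -0.41 for AKR1C1.

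For those higher in DKO after MPS1i and lower after DMSO, the interaction was 2.10 for PSAT1, 1.97 for ASNS, 1.87 for ULBP1, 1.15 for the linker histone H1-2, 0.97 for SLC7A11, 0.55 for the sterol isomerase EBP and 0.46 for NDUFV1, a respiratory chain subunit. The calls after MPS1i of HK2, CCN1, CCN2, AKR1C1 and EBP, like those of ICAM1 and CHAC1, were lost on leaving out at least 1 of the 4 libraries.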

How the results depend on the processing

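Of the named genes called in DKO against SCR after MPS1i, none changed direction under the settings read for this comparison. Of the 21 settings tried, those leaving out a DMSO, STING or MAVS library were not read for named genes, lists or chromosomes. MKI67 and TTK, which were not called, changed sign near 0. The balance of higher and lower calls did turn with the scaling: against STING cells it was 1539 and 1144 with upper quartile scaling (1157 and 1380 with TMM), for the interaction 2956 and 2247 with total counts (2415 and 2606), and after DMSO 2715 and 2933 with RLE size factors (2837 and 2754). The number of genes at least 2-fold lower was 625 when genes under a mean of 1 CPM were left out, which tests fewer genes, against 1049. The number called between DKO and STING cells after MPS1i was 1473 without DKO replicate 1, 1684 without DKO replicate 2 and 1656 without STING replicate 2, against 2537, with a range of 1473 to 1703 over the libraries left out. The cause was not tested. Leaving out 1 library gave 6373 to 6914 genes for DKO against SCR after MPS1i (3221 to 3485 higher, 3152 to 3472 lower), 4089 to 5518 after DMSO, 4125 to 4970 for the interaction, 5578 to 6273 against SCR after DMSO and 3349 to 3674 against MAVS cells. The same replicate number did not pair the libraries (correlation of deviations -0.021), and the fit with the replicate block called 8094 genes, 7998 of them among the 8087. DESeq2 called 6954, of which 6924 were shared. Of 2808 values of 218 named genes, 116 lost their call (28 genes) and 6 gained one (4 genes). Of 1547 list and chromosome values, 103 moved. With 2 libraries a group, and genes at a few counts in DKO, depth limits the size of the largest folds, and intervals on counts cover counting error only.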
